A study of Homo sapiens with 8 samples.

Results

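The proteasome subunit genes are the protein-coding genes whose symbol is PSMA, PSMB, PSMC, PSMD, PSME, PSMF or PSMG followed by a number. Of the 57736 gene IDs in the files, 19250 were protein-coding and 47 met this rule, against 48 such symbols in the gene table. The remaining symbol, PSMB3, has a current ID that did not match and is not analysed here. Members were grouped by their known place in the complex: 8 genes of the 20S alpha ring, 6 of the constitutive 20S beta ring, 4 inducible or thymic beta subunits, 6 ATPases and 11 other subunits of the 19S particle, 3 chaperones of 19S assembly, 5 activators or inhibitors and 4 chaperones of 20S assembly. PSMA8, a testis subunit, held 0 counts in all 8 libraries, and PSMB11, a thymus subunit, held at most 4 counts in any of them. The other 45 members carry the results.

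All libraries came from IMR90, a line of human fetal lung fibroblasts. In the RNA-seq experiment, ADAR1 knockdown (KD) cells and control (Ctrl) cells gave 1 library each, from total RNA. In the second experiment, shADAR1, shHuR and shControl cells each gave 1 precipitate with an anti-HuR antibody and 1 input library without antibody. ADAR1 (gene ADAR) edits adenosine in double-stranded RNA, and HuR (gene ELAVL1) binds U-rich and AU-rich stretches of mRNA. The labels give no hairpin sequence for any knockdown, no second culture of any line and no precipitate with a control antibody. The title of the series asks how a loss of ADAR1 bears on p16INK4a in senescence.

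The proteasome degrades ubiquitin-tagged proteins. Its 20S core stacks rings of alpha subunits around rings of beta subunits, some of which are proteases, and the 19S particle with its ring of ATPases recognises, unfolds and feeds in the substrate. Interferon replaces the catalytic beta subunits by inducible ones, PSMB5 by PSMB8, PSMB6 by PSMB9 and PSMB7 by PSMB10, and also induces the activator subunits PSME1 and PSME2, which together serve antigen presentation.

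Totals ran between 28390935 and 50711218 counts a library, and proteasome subunits took 0.767% of the counts in RNA-seq ADAR1 knockdown cells and 0.6005% in RNA-seq control cells. In the precipitates they took 0.170% (shADAR1), 0.209% (shHuR) and 0.217% (shControl), against 0.350%, 0.422% and 0.406% in the inputs of the same lines. The targeted genes followed the labels: ADAR had 1445 counts in RNA-seq knockdown cells against 7732 in control cells. It had 3142 in the shADAR1 input and 9406 in the shHuR input against 12890 in the shControl input. On scaled counts its log2 ratio was -2.81 in the RNA-seq pair. Against shControl it was -1.55 in the shADAR1 input and -0.35 in the shHuR input. ELAVL1 had 2532 counts in RNA-seq ADAR1 knockdown cells against 2035 in control cells, from libraries of unequal totals. Scaled for library size, its log2 ratio there was -0.07 (interval -0.16 to 0.01). It had 674 counts in the shHuR input and 3545 in the shADAR1 input, against 4806 in the shControl input. Its scaled log2 ratio against shControl was -2.73 in the shHuR input and 0.05 (interval -0.02 to 0.11) in the shADAR1 input. ELAVL1 was thus close to control in both ADAR1 knockdown pairs. All 6 fibroblast markers were detected in every library, with a summed level of 2122 to 11220 CPM (counts relative to the library total). Summed markers of other cell types reached at most 15.3 (epithelial), 78.2 (endothelial, 3 of 4 markers measured) and 47.4 (leukocyte) CPM. KRT5 (epithelial) and CDH5 (endothelial) were at 0 throughout, but other markers of these lists were detected. In RNA-seq knockdown and control cells, TEK (endothelial) had 3930 and 2046 counts, CLDN4 (epithelial) 675 and 427, and EPCAM (epithelial) 103 and 136. Of the 4 leukocyte markers, 1 had 50 or more counts in these 2 libraries. Each group held 1 library, so no difference between a pair of libraries has a replicate check, and intervals (95%) cover counting error only. Fewer cells with an RNA and less of it per cell cannot be told apart in such bulk libraries.

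The sequences below show the feature HuR is known for in members chosen by their direction in the HuR precipitates. Each is the 30-base window of the annotated 3′ untranslated region (UTR; GENCODE 29) with the most T, 5′ to 3′ on the strand of the mRNA, with T written for U. Capitals mark runs of 4 or more T and the pentamer ATTTA. The first 6 belong to the members that rose in the HuR precipitates, the next 2 to members that fell despite a T-rich window, and the last 2 to members that fell without one.
PSMD11: TTTTTTTTTTaaTTTTctttgttgggTTTT
PSMD12: TTTTTTTTTTTTTTTTTTTTTgctcttctt
PSMD5: ctatcTTTTTTTTTcTTTTTggtccTTTTT
PSMD10: ATTTAttcttactttgtatgttgtgttgtt
PSMG3: tcaattgtaggaggaaatttcTTTTTTatt
PSMG4: tcccgTTTTgTTTTTaaggggttaatcttt
PSMA5: ttctaatagtcTTTTTTTTTTTTTTTTTTT
PSMG1: TTTTTatcttATTTATTTATTTATTTAttt
PSMB6: tgtactgatgcaaaATTTAataaagtttgt
PSMB10: tgaggcttagagcttggaacaagggggaat

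Most proteasome RNAs were depleted from the HuR precipitates, while a small group was recovered strongly. Over the 3 lines, 6 members rose and 32 fell in precipitate against input (edgeR quasi-likelihood test with the line as block, 6 libraries, Benjamini-Hochberg adjusted p under 0.05), and 7 did not pass the threshold. Across all 16232 genes tested, 30.3% rose and 31.3% fell, and among the 13263 protein-coding ones 27.9% rose and 36.0% fell. The median log2 change was -1.92 over the 45 members and -0.11 over all genes, on counts scaled with edgeR's TMM factors, which a trimmed mean of gene ratios sets. Scaled to total counts instead, which moves the median of all genes to -1.06, 4 members rose and 38 fell, beside 2769 and 8287 genes of the whole table. No precipitate with a control antibody is at hand, so binding to HuR and unspecific recovery cannot be told apart.

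The 2 members with the highest recovery were subunits of the 19S lid. PSMD11, the Rpn6 subunit that braces the lid against the core, had 713.8 (shADAR1), 624.7 (shHuR) and 933.9 (shControl) scaled CPM (counts set to a common library size with the TMM factors) in the precipitates, against 98.9, 97.8 and 117.7 in the inputs of the same lines. All 3 of its precipitates lay above all 3 inputs, and it rose 7.40-fold (log2 change 2.89, SE 0.26, adjusted p = 1.12e-05 by edgeR). PSMD12, another lid subunit (Rpn5), had 344.3, 830.7 and 326.0 in the precipitates of shADAR1, shHuR and shControl cells, against 72.4, 99.7 and 66.1 in their inputs. It rose 5.995-fold (log2 change 2.58, SE 0.28, adjusted p = 3.71e-05 by edgeR), with its highest precipitate in the shHuR line. The other 9 non-ATPase subunits of the 19S particle all fell. PSMD8 fell most, with 9.35, 24.0 and 8.98 scaled CPM in the shADAR1, shHuR and shControl precipitates against 97.4, 112.3 and 92.8 in the inputs (log2 change -2.95, SE 0.34, adjusted p = 4.73e-05 by edgeR). PSMD2 and PSMD1, the large scaffold subunits of the 19S base, fell with log2 changes of -1.81 and -2.32, and PSMD14, the deubiquitinase of the lid, fell by 2.43.

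Chaperones of assembly made up the other 4 risers. PSMD5, which holds ATPases during assembly of the 19S base, had 241.2, 127.0 and 236.8 scaled CPM in the shADAR1, shHuR and shControl precipitates against 52.4, 52.7 and 41.4 in the inputs (log2 change 2.05, SE 0.31, adjusted p = 0.00026 by edgeR). PSMD10 (gankyrin), another chaperone of the base, had 108.4, 31.2 and 169.5 in the precipitates against 40.5, 40.5 and 32.8 in the inputs. Its shHuR precipitate lay below the inputs and its other precipitates above them, and it rose by 1.21 (SE 0.46, adjusted p = 0.0383 by edgeR). The third, PSMD9, had a log2 change of -0.56 (adjusted p = 0.117). Chaperones of the 20S core work in pairs. PSMG3 and PSMG4, which bind each other, rose by 1.75 (SE 0.32, adjusted p = 0.000867) and 1.27 (SE 0.41, adjusted p = 0.0199), both by edgeR. PSMG1 and PSMG2, which form the other pair, had log2 changes of -2.32 and -1.77 and fell. PSMG4 was a low RNA, with 8.39, 19.3 and 5.996 scaled CPM in the shADAR1, shHuR and shControl precipitates against 3.35, 4.44 and 5.21 in the inputs. Without the shADAR1 libraries 3 members rose, as PSMD10, PSMG3 and PSMG4 no longer passed the threshold.

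The core particle was depleted almost throughout. All 7 alpha subunits fell, with log2 changes of -1.46 (PSMA5) to -2.52 (PSMA7). PSMA7 had 11.2, 23.4 and 12.99 scaled CPM in the shADAR1, shHuR and shControl precipitates, against 75.5, 83.1 and 113.3 in the inputs. In the beta ring 4 of 6 fell, with PSMB6 lowest (log2 change -2.83, SE 0.39, adjusted p = 0.000142 by edgeR). PSMB2 and PSMB4, which are structural and not proteolytic, had log2 changes of 0.34 and 0.13 and passed in neither direction. PSMB2 had 171.2, 129.5 and 234.2 scaled CPM in the shADAR1, shHuR and shControl precipitates, against 128.8, 165.6 and 134.0 in the inputs, so that its groups overlapped. The catalytic PSMB5 fell by 1.51. The inducible subunits PSMB8, PSMB9 and PSMB10 had log2 changes of -2.58, -1.497 and -2.77 and fell, with low levels of 0.494 to 2.95 scaled CPM in the precipitates. Of the ATPases 5 of 6 fell, with log2 changes of -1.92 (PSMC6) to -2.78 (PSMC1). PSMC1 is uncertain, since 75.8% of its exon length overlaps NRDE2 on the opposite strand and the strand setting of the counting is not given in the sources used here. PSMC4 was the exception, at a log2 change of 0.15 (adjusted p = 0.696).

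Activators split by subunit. PSME1 and PSME2, which form the interferon-induced 11S ring, fell with log2 changes of -3.05 and -2.94 and were among the members with the lowest recovery. PSME3, which forms a nuclear 11S ring of its own, PSME4 (PA200), a single-chain activator, and PSMF1, an inhibitor of the core, had log2 changes of -0.13, 0.17 and -0.62 and did not pass. PSMF1 stood at the edge, with an adjusted p of 0.0558 by edgeR and a call of lower by DESeq2.

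**Figure D1:**
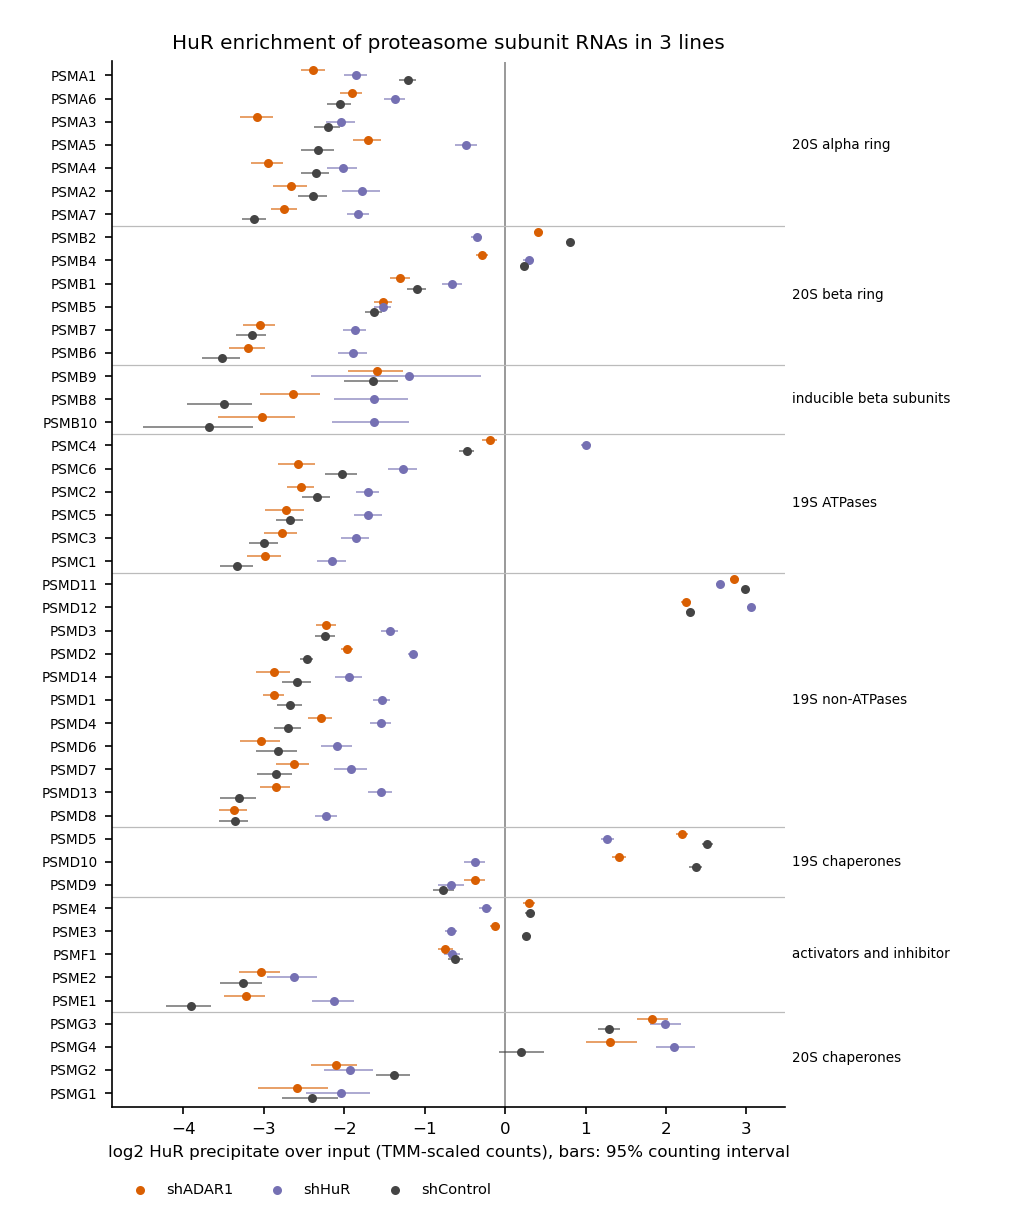
Log2 ratio of HuR precipitate to input (x axis, TMM-scaled counts) for the 45 detected proteasome subunits, grouped by role, in shADAR1, shHuR and shControl cells, 1 library pair a line, with bars for the 95% counting interval. 34 members lie below 0 in all 3 lines and 5 above it (PSMD11, PSMD12, PSMD5, PSMG3, PSMG4). The interval of PSMG4 in shControl cells spans 0 (-0.08 to 0.48). The other 6 have mixed signs, and of these PSMD10, PSMB2 and PSME4 are below 0 in shHuR cells alone.

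Other genes of the pathway also went both ways. In a fixed list of 30, 6 rose and 17 fell in the precipitates, beside the 30.3% that rose and 31.3% that fell of all genes tested. Among those that fell were the ubiquitin genes RPS27A (log2 change -3.33) and UBB (-3.05), the assembly factor POMP (-2.81), the ubiquitin-activating enzyme UBA1 (-2.31) and the ubiquitin receptor ADRM1 (-2.26). AKIRIN2, needed for nuclear import of proteasomes, rose by 2.75, UBA6, the other ubiquitin-activating enzyme, by 2.58, and the shuttle factor RAD23B by 1.92. NFE2L1 and NFE2L2, transcription factors of proteasome and stress genes, fell with log2 changes of -0.99 and -1.31.

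Recovery followed how T-rich the 3′ UTR was, as a description across genes, which are not independent replicates. Over 13054 protein-coding genes with an annotated 3′ UTR, the Spearman correlation of the log2 change in precipitate against input with the T count of the window shown above was 0.65. It was 0.49 with the length of the 3′ UTR and 0.48 with the number of ATTTA pentamers. Longer UTRs offer more windows, so these features share a source. Over the 45 members the values were 0.56, 0.42 and 0.29. Features not particular to HuR also went along with recovery. The correlation was 0.41 over genes and 0.32 over members with the transcript length that RNA-seq counts and FPKM imply. With GC percent it was -0.38 and -0.28, and with coding length 0.14 and -0.09. Their separate parts were not tested. The median 3′ UTR was 317 bases over the members and 1111 bases over the 13054 genes, and the median window held 17 and 18 T.

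The windows put numbers to the sequences printed above. Where the window held 21 or more T, 66.3% of 3782 genes rose and 5.29% fell, and of the 9 members there 3 rose (PSMD12 with 26 T, PSMD11 with 23, PSMD5 with 22) and 3 fell. Where it held 15 to 17 T, 7.62% of 2900 genes rose and 60.7% fell, and of the 19 members there 16 fell. PSMG3 and PSMG4 rose with 15 and 16 T and 3′ UTRs of 368 and 337 bases. PSMA5 (24 T, 8 ATTTA) and PSMG1 (23 T, 6 ATTTA) fell. Members that rose had 3′ UTRs of 337 to 2927 bases with a median of 1310, and members that fell had 44 to 3475 bases with a median of 224.

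Annotated transcripts are not always the ones counted. The effective length that counts and FPKM imply in the RNA-seq was 866 bases for PSMA5 against an annotated 3729, and 651 against 2154 for PSMG1. It was also short for risers, 1436 against 4098 bases for PSMD11 and 1847 against 4406 for PSMD12, but 2993 against 3443 for PSMD5. Whether the forms in these cells carry the printed windows was not tested.

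**Figure D2:**
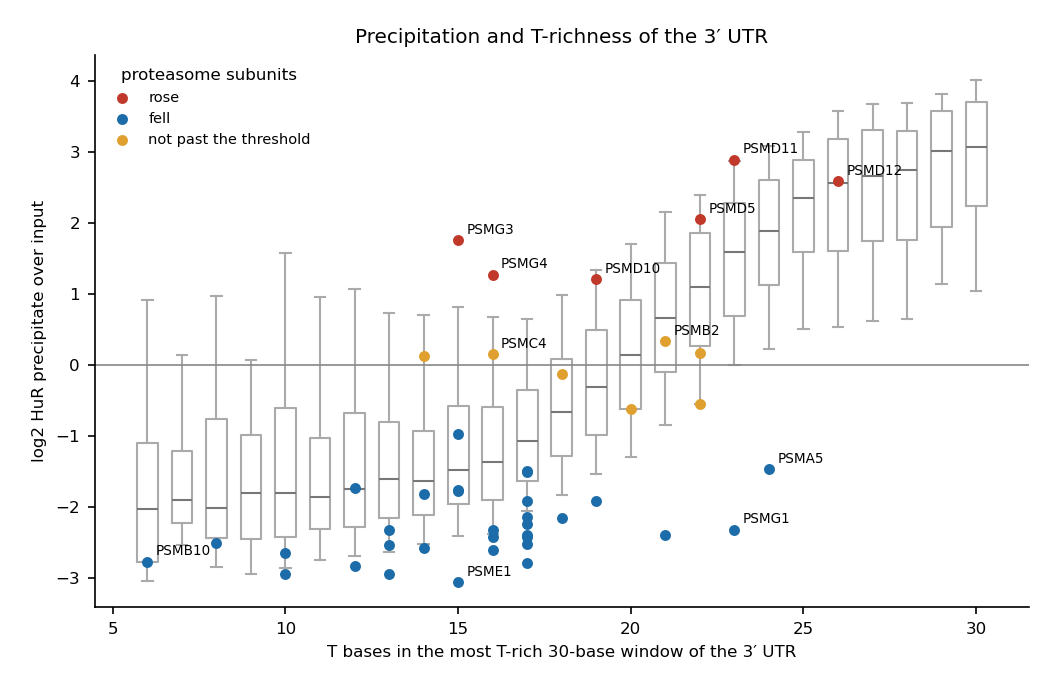
Log2 change of HuR precipitate over input (y axis, edgeR over 3 lines) against the number of T bases in the most T-rich 30-base window of the annotated 3′ UTR (x axis). Grey boxes show the quartiles of all protein-coding genes at each count with 20 or more genes (whiskers at the 10th and 90th percentile), and points the 45 members by call. PSMD12, PSMD11 and PSMD5 sit high at 22 to 26 T, and PSMA5 and PSMG1 sit low at 24 and 23 T.

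Most subunits were less depleted from the precipitate of shHuR cells than from that of shControl cells. Between shHuR and shControl cells, with 42 members at 50 or more counts in each of the 4 libraries, enrichment was higher by 1.5-fold or more for 26 members and lower for 5. Over all 10153 genes, 35.2% were higher and 25.3% lower. The median difference was 0.69 over the members and 0.14 over all genes (log2). Of the 26, 22 had an enrichment below 0 in both lines and were less depleted in shHuR cells, and the other 4 were PSMC4, PSMD12, PSMG3 and PSMG4. All 6 ATPases and 10 of the 11 non-ATPase 19S subunits were among the 26. Removing the trend with transcript length left 17 higher and 6 lower, with a median of 0.36.

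The 5 lower members were PSMD10, PSMD5, PSMB2, PSME3 and PSMA1. PSMD10 stood at a log2 enrichment of -0.38 (interval -0.51 to -0.25) in shHuR cells against 2.37 (2.29 to 2.46) in shControl cells, a difference of -2.75 (interval -2.90 to -2.60), or 6.71-fold. PSMD5 stood at 1.27 against 2.52 (difference -1.25), PSMB2 at -0.35 against 0.81 (difference -1.16) and PSME3 at -0.67 against 0.26 (difference -0.94). PSMD11, in contrast, stood at 2.68 in shHuR cells against 2.99 in shControl cells, a difference of -0.31 under the 1.5-fold limit. PSMD12 was higher, at 3.06 in shHuR cells against 2.30 in shControl cells. PSMC4 stood at 1.007 in shHuR cells against -0.48 in shControl cells, the highest difference among the ATPases (1.49). The members with the strongest recovery therefore did not share 1 direction when HuR was depleted, at an ELAVL1 level in the input 6.63-fold lower in shHuR cells than in shControl cells.

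Enrichment in shADAR1 cells differed from that in shControl cells for few subunits. Of 44 members with enough counts, 4 were higher (PSMA5, PSMB8, PSME1, PSMG4) and 5 lower (PSMA1, PSMA3, PSMA4, PSMD10, PSMG2) by 1.5-fold or more, beside 16.3% higher and 13.8% lower of 10500 genes. The median difference was -0.01 over the members and -0.08 over all genes. PSMG4 had the largest gain, at 1.31 in shADAR1 cells against 0.20 in shControl cells. PSMA1 had the largest loss, at -2.38 in shADAR1 cells against -1.21 in shControl cells, and PSMD10 stood at 1.42 against 2.37. The shADAR1 and shHuR comparisons share the shControl libraries.

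Per length, the subunits were abundant RNAs. The median of the 45 members was 126.2 FPKM (fragments corrected for transcript length and depth) in RNA-seq ADAR1 knockdown cells and 100.1 in control cells, against 12.2 and 12.7 FPKM over 11750 protein-coding genes with 50 or more counts. PSMC3, an ATPase, was highest at 862.7 FPKM in knockdown cells and 438.8 in control cells, followed by PSMD2 (558.7 and 361.9). PSMB2 was the lowest of the constitutive core subunits, at 17.3 FPKM in knockdown cells and 14.02 in control cells, against 90.2 or more for every alpha subunit. Chaperones ran from 13.6 FPKM (PSMG4 in control cells) to 78.2 (PSMD9 in knockdown cells), a range that also held the structural subunits PSMD3 (44.9 in knockdown cells and 30.5 in control cells) and PSMC5 (20.7 and 37.4). The inducible subunits were among the low members, with PSMB8 at 14.7 FPKM in knockdown cells and 20.5 in control cells, PSMB10 at 13.9 and 14.9, and PSMB9, the lowest of the 45, at 0.89 and 1.87. FPKM values depend on the transcript forms the estimate assigns, as the short implied length of PSMC3 (576 bases, against 1580 annotated) shows.

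**Figure D3:**
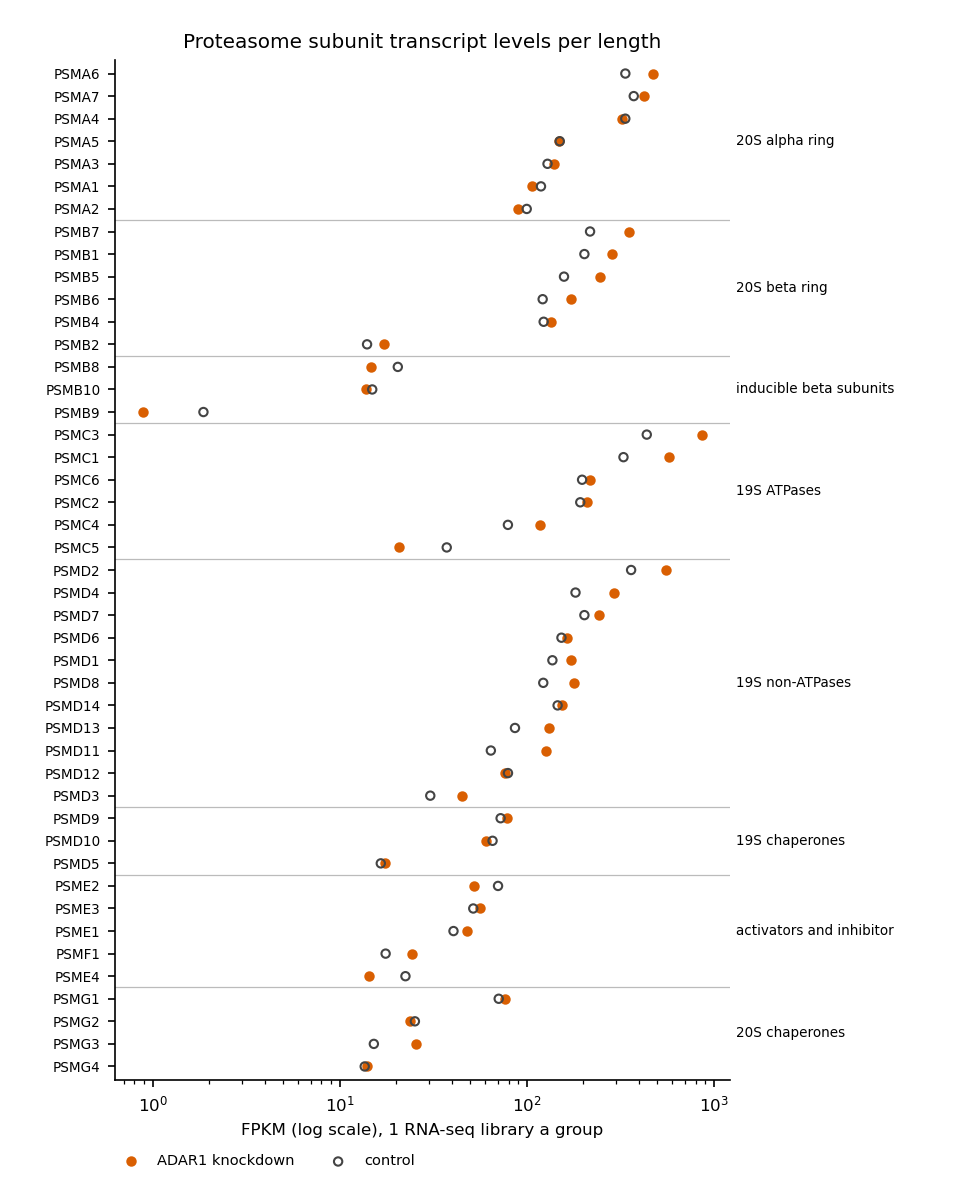
FPKM (x axis, log scale) of the 45 detected proteasome subunits, grouped by role, in the RNA-seq ADAR1 knockdown library (filled) and control library (open). PSMC3 is highest at 862.7 in knockdown cells and 438.8 in control cells, and PSMB9 lowest at 0.89 and 1.87.

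No proteasome subunit passed the test of ADAR1 knockdown over both experiments. The edgeR test of knockdown against control, with the RNA-seq pair and the shADAR1 and shControl inputs as blocks, called 0 of 45 members, with 0 at an unadjusted p under 0.05, and DESeq2 also called 0. Across 15994 genes it called 0.0813% higher and 0.0125% lower. With 1 residual degree of freedom the test is blunt: ADAR itself, at a log2 change of -2.19, had an adjusted p of 0.275. The fixed pathway list gave 0 of 30.

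Within the RNA-seq pair, the constitutive beta ring and the 19S subunits leaned higher in the knockdown library, short of a 2-fold difference. Of 44 members with 50 or more counts, 34 had a log2 ratio above 0 and 10 below, with a median of 0.23, against -0.01 over all genes. None differed by 2-fold, beside 8.31% of 13235 genes higher and 7.71% lower. At 1.5-fold 11 of the 44 were higher and 2 lower, beside 18.3% and 19.3% of all genes. All 6 constitutive beta subunits (median 0.57) and all 11 non-ATPase 19S subunits (median 0.58) lay above 0, while the alpha ring had a median of 0.00. PSMC3 was highest, with 24477 counts in knockdown cells against 10167 in control cells (log2 ratio 0.88, interval 0.84 to 0.91), followed by PSMB7 (0.79), PSMD8 (0.75) and PSMG3 (0.73). PSME4 was lowest, with 4267 counts in knockdown cells against 5354 in control cells (-0.72, interval -0.78 to -0.66), followed by PSMC5 (-0.66). Removing the trend with transcript length lowered the median of the members to 0.05 and that of the alpha ring to -0.22. The constitutive beta ring then stood at 0.33, with 5 of 6 above 0. The ATPases went from 0.32 to 0.15, with 4 of 6 above 0, and the 19S non-ATPases stood at 0.50, with 10 of 11 above 0.

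The shADAR1 input did not show the same lean. Its members had a median log2 ratio of -0.10 against shControl, with 18 above 0 and 27 below, and none differed by 2-fold, beside 9.14% higher and 10.3% lower of 13192 genes. At 1.5-fold 1 was higher and 5 lower, beside 18.9% and 21.2% of all genes. PSMC3 (-0.58), PSMB7 (-0.42), PSMG3 (-0.75) and PSMA7 (-0.59) lay below 0 here and above 0 in the RNA-seq pair. PSMC5, an ATPase, was the lowest in this pair at -0.92, with 1267 counts in the shADAR1 input against 3365 in the shControl input. It was low in both pairs, and its combined log2 change was -0.80 (SE 0.42, adjusted p = 0.9998 by edgeR). PSMD1, the scaffold subunit, was high in both, at 0.34 in the RNA-seq and 0.78 in the inputs (combined 0.56, SE 0.45, adjusted p = 0.9998 by edgeR).

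**Figure D4:**
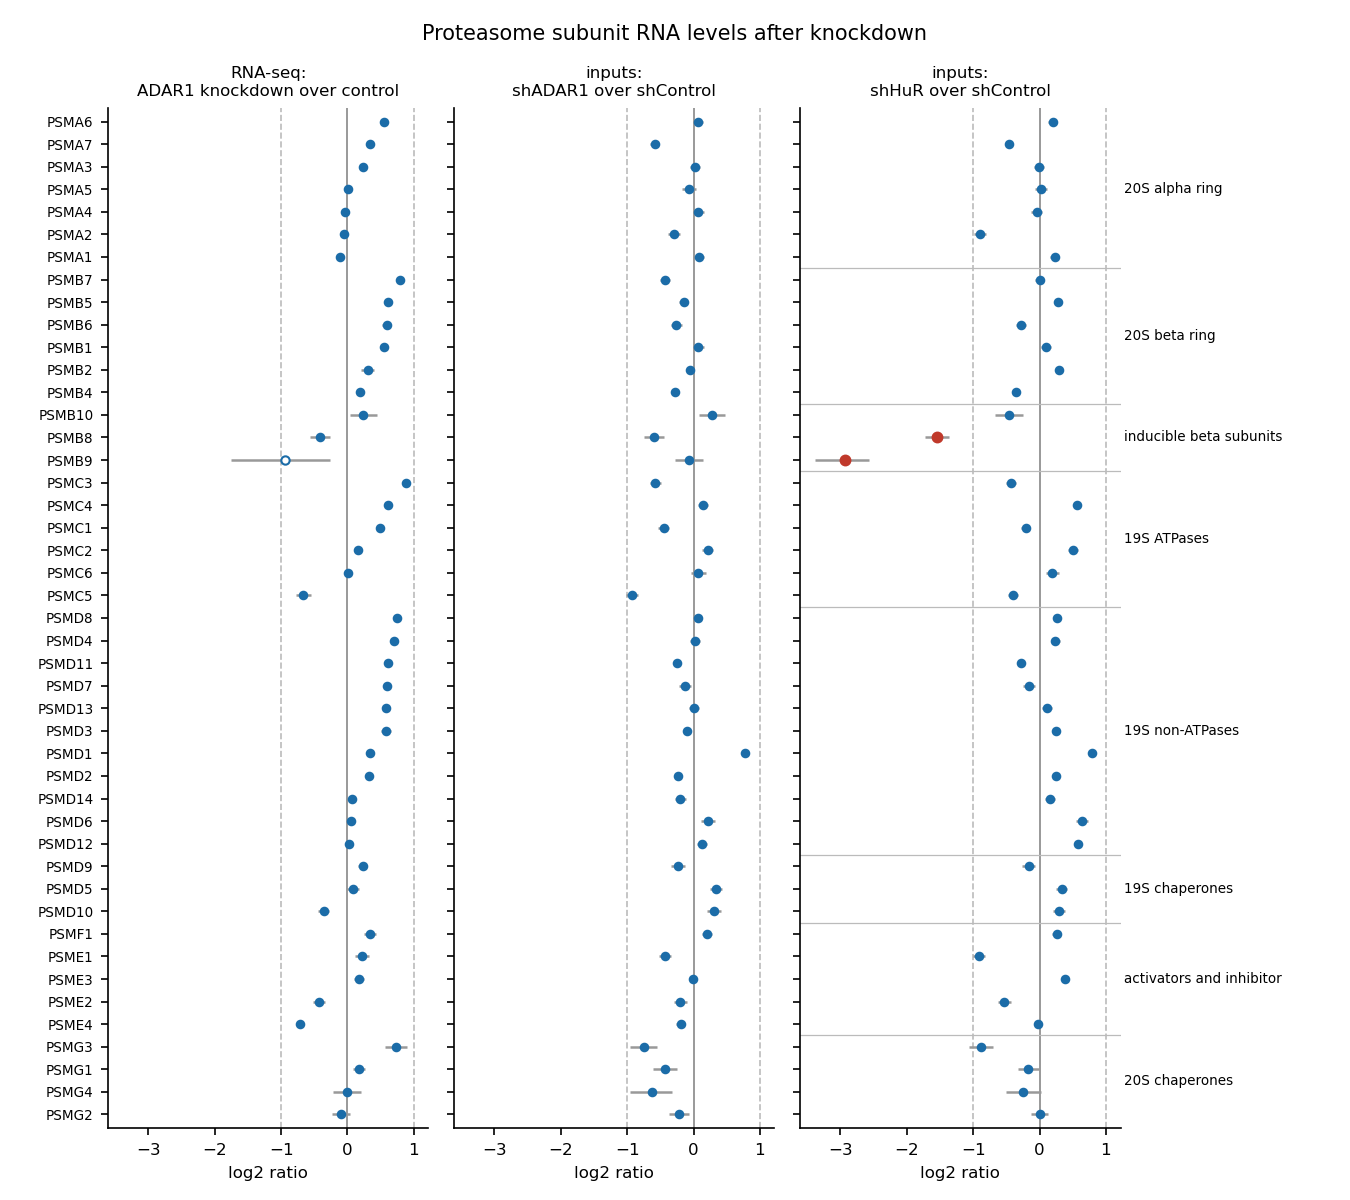
Log2 ratio (x axis) of RNA-seq ADAR1 knockdown over control, shADAR1 input over shControl input and shHuR input over shControl input for the 45 detected proteasome subunits, 1 library a group, with grey bars for the 95% counting interval and dashed lines at 2-fold. Red points (PSMB9 and PSMB8 in the shHuR input) are 2-fold or more lower, and the open point (PSMB9 in the RNA-seq) had under 50 counts.

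In the shHuR input PSMB9 and PSMB8 were the members past the 2-fold limit, and both were lower. The median log2 ratio of 45 members against the shControl input was 0.00, and 2 members were lower by 2-fold or more while 0 were higher, beside 15.9% lower and 12% higher of 13390 genes. At 1.5-fold 5 were lower and 2 higher, beside 26.6% and 22.9% of all genes. PSMB9, the inducible partner of PSMB6, had 58 counts in the shHuR input and 332 in the shADAR1 input, against 487 in the shControl input. Its shHuR level was 7.61-fold lower than in shControl cells (log2 ratio -2.93, interval -3.39 to -2.57). The scaled shADAR1 level of PSMB9 was close to that of shControl cells (log2 ratio -0.07, interval -0.27 to 0.14). PSMB8 had 352 counts in the shHuR input and 521 in the shADAR1 input, against 1102 in the shControl input. It was 2.91-fold lower in shHuR cells (-1.54, interval -1.72 to -1.37), and its log2 ratio in shADAR1 cells was -0.59 (interval -0.75 to -0.44). PSMB10 was lower by less, with 322 counts in the shHuR input against 475 in the shControl input (-0.46, interval -0.67 to -0.25). PSME1 (-0.91) and PSME2 (-0.53) lay on the same side. Outside the interferon-linked members, PSMA2 (-0.89) and PSMG3 (-0.88) were lowest, and PSMD1 (0.79) and PSMD6 (0.64) highest. PSMB8 shares 20.6% of its exon length with genes on the opposite strand, PSMB9 among them. PSMB10 shares 34.75% with a gene on the same strand, and PSMA2 34.63% with genes on either strand.

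Set against their constitutive partners per length, the inducible subunits were a minority in every input and RNA-seq library. PSMB8 stood at 7.16% of PSMB5 in the shHuR input (interval 6.41 to 7.98) and 18.7% in the shADAR1 input, against 25.4% (23.8 to 27.2) in the shControl input. PSMB9 stood at 2.54% of PSMB6 in the shHuR input (1.93 to 3.30) and 18.8% in the shADAR1 input, against 16.4% (14.9 to 18.04) in the shControl input. PSMB10 stood at 9.17% of PSMB7 in the shHuR input and 20.5% in the shADAR1 input, against 12.6% in the shControl input. In the RNA-seq the same ratios were 6.15%, 0.514% and 4.27% in knockdown cells against 12.5%, 1.54% and 6.23% in control cells. All 3 ratios were lower in the knockdown library there, where the constitutive partners PSMB5, PSMB6 and PSMB7 had log2 ratios of 0.61, 0.59 and 0.79 against control. PSMB8 itself had -0.41 and PSMB10 0.24 on scaled counts. In FPKM, PSMB10 stood at 13.9 in knockdown cells and 14.9 in control cells. With the trend with transcript length removed, PSMB8 and PSMB10 both lay below 0 (median -0.38). The direction of PSMB10 therefore depended on the measure. PSMB9 had 27 counts in knockdown cells and 41 in control cells, under the minimum of 50. In the inputs the PSMB8 ratio was lower in shADAR1 than in shControl cells and the PSMB10 ratio higher. The lengths are those implied by the RNA-seq and were applied to all libraries.

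**Figure D5:**
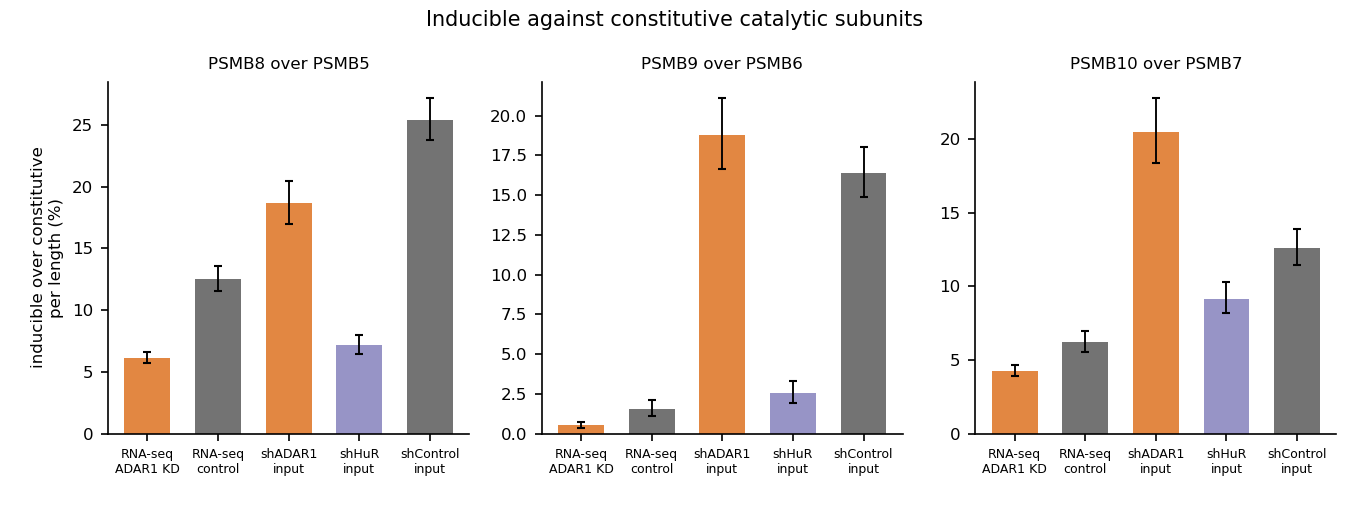
Inducible over constitutive catalytic subunit (y axis, percent of length-scaled counts) in the RNA-seq ADAR1 knockdown and control libraries and the shADAR1, shHuR and shControl inputs, 1 library each, with 95% counting intervals. PSMB8 over PSMB5 is 7.16% in the shHuR input against 25.4% in the shControl input, and PSMB9 over PSMB6 is 2.54% against 16.4%.

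Interferon-linked genes outside the complex differed among themselves in the inputs. IRF1, a transcription factor that interferon induces and that activates the inducible subunit genes, had 957 and 1853 counts in the shHuR and shADAR1 inputs against 929 in the shControl input (log2 ratios 0.14 and 1.48). TAP1, the peptide transporter encoded beside PSMB8 and PSMB9, had log2 ratios of -0.30 in shHuR and 0.28 in shADAR1 cells against shControl. NLRC5, the activator of antigen presentation genes, had log2 ratios of -1.23 in shHuR and -0.66 in shADAR1 cells. In the RNA-seq pair these 3 genes ran between -0.74 (TAP1) and 0.73 (IRF1).

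The promoters of 4 interferon-induced members, PSMB9 not among them, carry the sequence that interferon regulatory factors are known to read. The motif GAAANNGAA, searched on both strands from 250 bases before to 50 bases after each RefSeq start (GRCh38.p14), was in the promoters of PSMB8, PSMB10, PSME1 and PSME2. It was not in the window of PSMB9, which says only that these letters are not there. That window starts at chr6:32853942. A promoter of the neighbour TAP1, on the other strand, held 2 matches just outside it, within chr6:32853808-32853852. Whether these act on PSMB9 was not tested. The matches of the 4 members are shown with up to 15 bases to either side. They are on the strand of the gene, with the motif or its reverse complement in capitals.
PSMB8, chr6:32844027-32844065, minus strand: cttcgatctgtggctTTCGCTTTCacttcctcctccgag
PSMB10, chr16:67936848-67936886, minus strand: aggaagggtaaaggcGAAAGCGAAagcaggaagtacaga
PSME1, chr14:24136185-24136223, plus strand: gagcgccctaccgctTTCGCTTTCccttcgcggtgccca
PSME2, chr14:24146615-24146653, minus strand: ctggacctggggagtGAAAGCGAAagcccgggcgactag
Of 50 member promoters in the table, which belong to 41 genes, 8 held a match (16%), against 8.11% of all 35116 promoters of the same length. The other 4 genes were PSMA4, PSMB4, PSMC2 and PSMG4. In the shHuR input PSMB4 and PSMG4 had log2 ratios of -0.35 and -0.24 against shControl, PSMA4 -0.04 and PSMC2 0.50.

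Copies of the subunit genes could take reads. Of 44 pseudogenes named after a member, 17 had a count in any library and 2 had 50 or more. PSMC1P1 had 1552 counts in RNA-seq ADAR1 knockdown cells and 900 in control cells, beside 21968 and 11993 for PSMC1, and 0 in the 6 libraries of the precipitation experiment. PSMC1P5 had 358 counts in RNA-seq knockdown cells and 42 in control cells.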

How the data were processed

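Expected counts per gene were made by the authors with RSEM 1.2.3 and hg19 (also GRCh37 for the precipitation experiment), per the submitters' processing notes, and were deposited as whole numbers. The deposited FPKM values of the RNA-seq are scaled by the authors to transcript length and library size. Aligner, annotation release and strand setting are not given in the sources used here. Symbols and 3′ UTRs came from GENCODE 29, promoters from RefSeq GRCh38.p14, by name and not by coordinate.

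Pairs of libraries were compared as log2 ratios of TMM-scaled counts with a prior count of 2, called at 2-fold with 50 or more counts in either library, and enrichment differences at 1.5-fold with 50 or more in all 4 libraries. Scaled CPM use the TMM factors of each experiment. Tests used edgeR 4.0.16 (quasi-likelihood, TMM, adjusted p under 0.05 over all genes) with experiment or line as block, since both libraries of a block share it by label, and DESeq2 1.42.0 as alternative. The tests were tried on simulated counts. The labels name no separate cultures, so p-values rest on library-to-library spread alone, which may be technical. Totals per library set the counting error. All members could be named, with the highest and lowest of each role group in full. Members and lists were chosen with earlier results of these data known. Transcript length and GC trends, other scalings and filters were alternatives. A few genes of the pathway lists and 1 sequence window are not reported here.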

Additional observations from a re-analysis of the deposited data

Results flagged for a closer look

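The HuR enrichment of 4 members had opposite signs in shHuR and shControl cells, with intervals off 0 and a difference of 1.5-fold or more. The difference of log2 enrichment, shHuR minus shControl, was -2.75 for PSMD10, -1.16 for PSMB2, -0.94 for PSME3 and 1.49 for PSMC4. PSME4 also had opposite signs, with a difference of -0.55, short of 1.5-fold. PSMG3 went opposite ways in the 2 ADAR1 knockdown pairs, with a log2 ratio of 0.73 in the RNA-seq pair (985 counts in knockdown cells, 452 in control cells) and -0.75 in the inputs (298 in shADAR1 cells, 703 in shControl cells). With 1 library a group these differences were not tested.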

How the results depend on the processing

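Most calls kept their side of the threshold under other scalings, priors and filters. The median log2 ratio of the members moved with transcript length: removing its trend gave 0.052 in the RNA-seq pair (0.23 without), 0.0013 in the shADAR1 input (-0.10 without) and 0.23 in the shHuR input (0.00 without), and FPKM with a pseudocount of 1 gave 0.14 in the RNA-seq. At a 1.5-fold limit, 11 members were higher and 2 lower in the RNA-seq pair, 1 and 5 in the shADAR1 input, and 2 and 5 in the shHuR input, with 18.3% to 22.9% of all genes higher and 19.3% to 26.6% lower at that limit. Scaled to total counts, 1 member was lower in the shADAR1 input. The enrichment difference of shHuR against shControl had 17 members higher with the length trend removed (median 0.36), and 14 higher and 3 lower at 2-fold. That of shADAR1 had 1 higher and 1 lower at 2-fold. In the precipitation test, leaving out 1 line gave 3 to 7 members that rose (lowest without shADAR1) and 31 to 33 that fell. Scaled to total counts, PSMB4 (-0.83), PSMC4 (-0.80) and PSME4 (-0.79) changed sign and fell, and PSMD10 and PSMG4 no longer passed. Without the line as block, PSMA5, PSMB9, PSMD10 and PSMG4 no longer passed. The causes were not tested, except that a lower fold limit calls more by construction. The labels carry no replicate numbers, so libraries were paired only by line or experiment, as in the tests with a block. Leaving out a library of an ADAR1 knockdown pair leaves the values of the other pair, given in the report, with no test. Under 50 counts, as for PSMB9 in the RNA-seq and PSMB10 in the precipitates, counting error limits what can be read.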
